A study of Mus musculus with 27 samples.

Results

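Cultured mouse foetal liver cells that lack both Rb1 and p107 were set against cultured cells that lack Rb1 alone. The question is what the loss of p107, the product of the gene Rbl1, adds in cells that already lack Rb1. The comparison uses 8 of the 27 arrays of the series, chosen by their labelled genotype and culture time. The double knockout (DKO, Rb1;p107) had 1 array at 24 h and 1 at 48 h of culture, and the single knockout (Rb1KO) had 4 at 24 h and 2 at 48 h. All cells came from E14.5 foetal livers, were untreated, and grew at 37C in a medium with 30% foetal bovine serum. The other arrays are uncultured DKO (2) and Rb1KO (5) cells, and p107KO and wild-type (WT) cells at all times. They are used here to set the spread and as separate material. The labels give neither the altered part of Rb1 and Rbl1, nor the cell type that lost them, nor whether replicate arrays are separate embryos. P-values therefore cover the spread among these arrays alone, possibly technical, and the DKO groups of 1 array borrow the spread of the other groups. Whole liver cells were measured, so fewer cells of a type and less RNA per cell cannot be told apart.

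Rb1, Rbl1 (p107) and Rbl2 (p130) encode the pocket proteins, which bind E2F transcription factors and hold back the genes of S phase and mitosis. In the foetal liver most cells are red cell precursors. As these mature they leave the cell cycle, condense the nucleus and clear organelles and unneeded proteins by autophagy and the ubiquitin system, and Rb1 is known to be needed for normal red cell maturation in the mouse embryo.

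The targeted genes were read first. Rbl1, on the minus strand of mouse chromosome 2, gave a signal of 99.2 on the DKO array and 2508, 1814, 2212 and 2192 on the Rb1KO arrays at 24 h, and 123 on the DKO array and 1278 and 1567 on the Rb1KO arrays at 48 h. The DKO arrays lay far below every Rb1KO array, and Rbl1 fell by 3.65 ± 0.22 (SE) on the log2(signal + 32) scale in the mean of both times (limma adjusted p = 8.15e-10). For Rb1 the brightest probe set read 4600 on the DKO array and 2659, 3363, 4355 and 4433 on the Rb1KO arrays at 24 h, and 5994 on the DKO array and 4207 and 5453 on the Rb1KO arrays at 48 h. WT cells gave 8589 to 10309 at 24 h and 5746 to 6583 at 48 h, so this probe set set both knockouts apart from WT at 24 h, but at 48 h the array labelled DKO lay inside the WT range. It therefore does not check the Rb1 label at 48 h, and DKO and Rb1KO stand throughout for arrays labelled so. DKO and Rb1KO differed in Rb1 by 0.33 ± 0.20 (SE), limma adjusted p = 0.451. Rbl2, the remaining pocket protein gene, gave 478 on the DKO array and 352, 358, 231 and 465 on the Rb1KO arrays at 24 h, and 550.4 on the DKO array and 500.5 and 388 on the Rb1KO arrays at 48 h, a difference of 0.37 ± 0.28 (SE), limma adjusted p = 0.572, which did not pass.

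**Figure D1:**
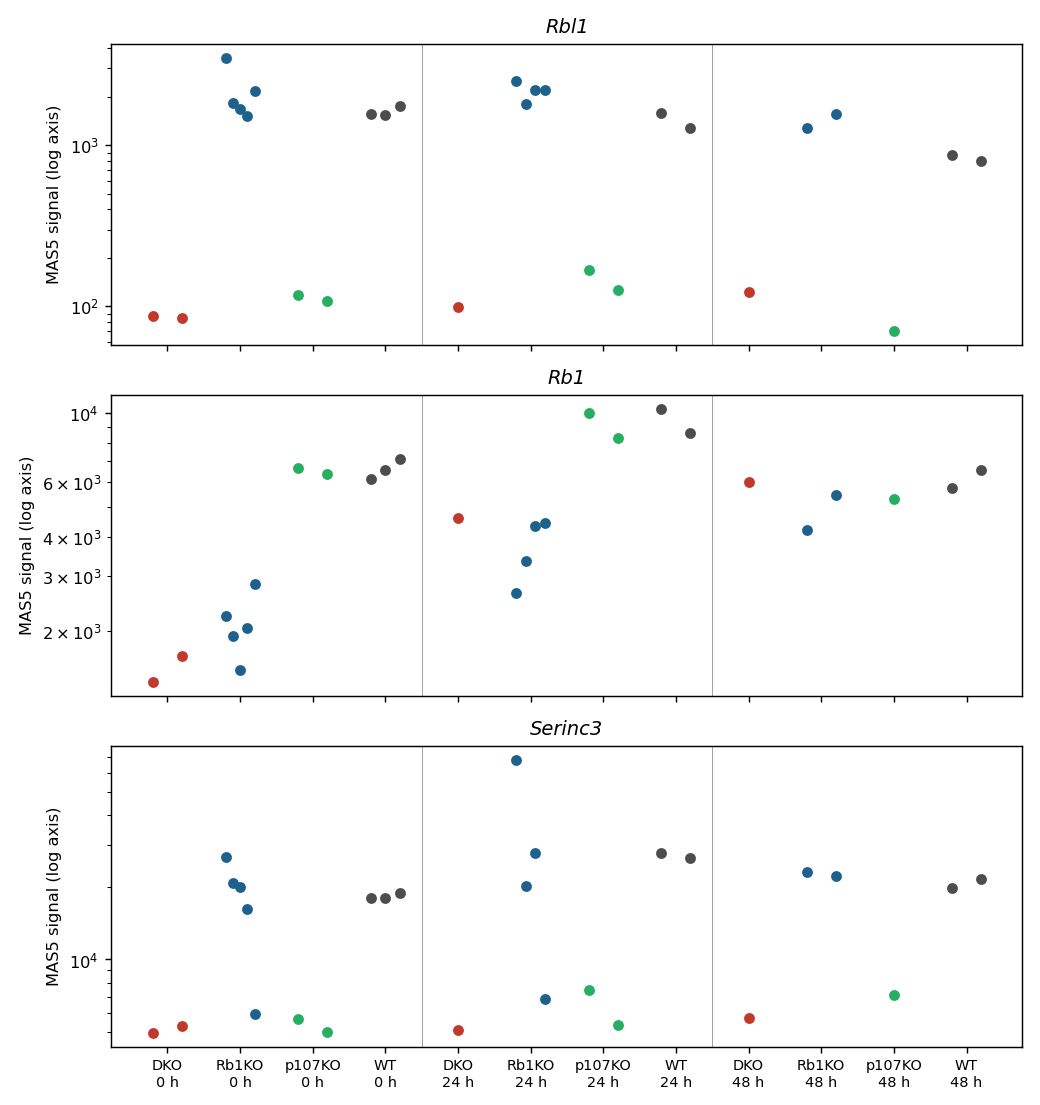
MAS5 signal (log axis) of Rbl1, Rb1 and Serinc3 on all 27 arrays, by genotype and culture time; each point is 1 array. Rbl1 was at or below 168 on every DKO and p107KO array, and Serinc3, a gene near Rbl1, was also low on 2 of the Rb1KO arrays.

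The window of 250 bases before the Rbl1 start is shown because this gene defines the comparison and is itself a known E2F target. The sequence is from RefSeq (GRCm38.p6), 5' to 3' on the gene's strand, with the match to 1 of the searched E2F words (TTTCGCGC) in capitals, which ends close to the start.
Rbl1 (chr2:157204535-157204784, minus strand): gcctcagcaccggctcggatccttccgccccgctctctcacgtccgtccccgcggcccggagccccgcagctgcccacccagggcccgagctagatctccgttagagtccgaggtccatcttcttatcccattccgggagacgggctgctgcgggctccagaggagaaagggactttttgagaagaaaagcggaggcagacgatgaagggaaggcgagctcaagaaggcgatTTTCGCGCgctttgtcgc

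Before the results, some features of the arrays matter. Signal from Y-linked genes was present on both DKO arrays, and among cultured Rb1KO arrays only on replicate 2 at 24 h and replicate 2 at 48 h. Only autosomal genes are therefore reported, and for some genes and lists values against these Y-matched arrays are given as well. By correlation across genes with arrays of the same time, the lowest at 24 h was Rb1KO replicate 1 (median r 0.938), followed by p107KO replicate 1 (0.947) and the DKO array (0.952). On these 3 arrays the brightest gene reached 125649 to 154046, against at most 90606 on any other array. All 3 are replicate 1 of their groups, and the labels do not say whether that number marks a shared run. No 2 arrays were identical. The summed signal of the 9 erythroid markers on the array was 231852 on the DKO array against 167252 to 308568 on Rb1KO arrays at 24 h, and 125054 against 164703 to 172399 at 48 h. For neutrophil markers the sums were 257653 on the DKO array against 111760.3 to 317817 on Rb1KO arrays at 24 h, and 267103 against 300142 to 401333 at 48 h. Hepatocyte markers summed to 10622 on the DKO array and 7094 to 17457 on Rb1KO arrays at 24 h, and at 48 h to 3904 and 5428 to 18775. Red cell, myeloid and liver genes were thus all present in these cultures, and at 48 h the DKO sums of these 3 lists lay below both Rb1KO arrays. By the mean of log2 values the hepatocyte list did not (6.650, against 6.643 on Rb1KO replicate 2). Among the other marker lists the stromal sum lay below both as well. The macrophage, megakaryocyte, mast cell and lymphoid sums lay between the Rb1KO arrays, and the endothelial and stem cell sums above both.

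In the mean of both culture times, 5 of 20 tested genes of late red cell clearance fell in DKO against Rb1KO cells and 0 rose. That list was chosen with earlier results of these data known. Snhg6, a noncoding host of small nucleolar RNAs, the progenitor surface marker gene Cd34 and the DNA methyltransferase gene Dnmt3b rose. Of 10554 autosomal genes tested, 80 passed in the mean of 24 h and 48 h (limma, Benjamini-Hochberg adjusted p under 0.05; 0.758% of genes), 44 higher (0.417%) and 36 lower (0.341%), with 1622 at an unadjusted p under 0.05 (15.4%). At 24 h alone 241 genes passed (2.28%), 141 higher (1.34%) and 100 lower (0.948%), with 1824 at an unadjusted p under 0.05 (17.3%). At 48 h alone only Rbl1 passed (0.00948%), with 516 genes at an unadjusted p under 0.05 (4.89%). The change of the difference between 24 h and 48 h passed for 0 genes, with 627 at an unadjusted p under 0.05 (5.94%). The 80 calls rest on the spread taken over all 27 arrays and on the DKO array at 24 h. With the 8 arrays of the groups compared alone, or with Y-linked signal as a covariate, 6 genes passed. Each DKO group has 1 array, so without either DKO array the mean cannot be formed and only the other time remains (counts above). The count was 138 without Rb1KO 24 h replicate 1, the array that stood apart, and 33 or 37 without Rb1KO 48 h replicate 1 or 2.

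A repeated difference was defined as one with the same sign at 24 h and 48 h, at least 1.5-fold at both, and with the smaller log2 difference at least 0.5 of the larger. Differences of 1.5-fold or more were seen for 2356 genes at 24 h, 1258 at 48 h and 468 at both, of which 365 had the same sign and 103 the opposite sign. The repeated set held 339 genes (3.21% of those tested), 208 higher in DKO (1.97%) and 131 lower (1.24%). In 303 of the 339 the DKO array lay outside the range of the Rb1KO arrays at both times (2440 of all genes tested, 23.1%), which the size limit largely fixes. In the mean of both times 41 of the 339 passed, 19 higher and 22 lower. At 2-fold in place of 1.5-fold the set held 31 genes. Against the Y-matched Rb1KO arrays alone, 156 of the 339 were still at least 1.5-fold at both times. That count shares both DKO arrays and 2 of the Rb1KO arrays with the choice of the 339, and is a description. Genes just inside the limits were Efna5 (log2 differences of 1.08 at 24 h and 0.58 at 48 h) and Rit1 (-0.59 and -0.60), and genes just outside were Mettl18 (0.74 and 0.58) and Serpinc1 (-0.58 and -0.85).

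**Figure D2:**
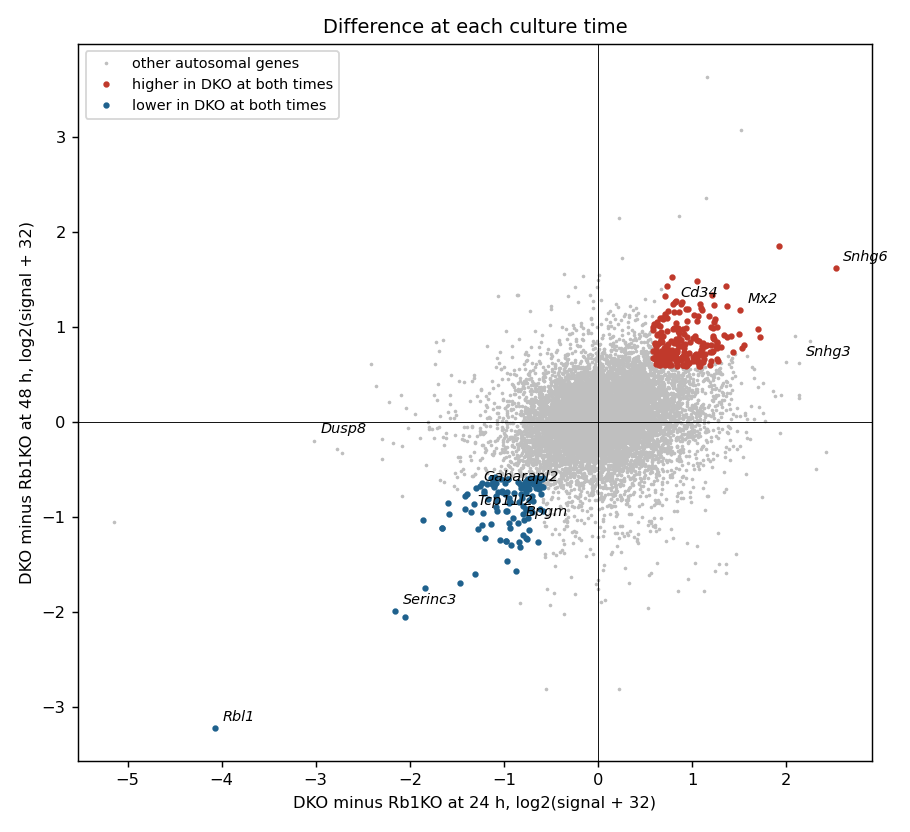
Difference between DKO and Rb1KO at 24 h (x axis) and 48 h (y axis), in log2(signal + 32), for the 10554 autosomal genes tested; coloured points are the 208 genes higher and the 131 lower in DKO at both times. Rbl1 is the lowest point at 48 h, Snhg6 lies at 2.52 and 1.61, and Dusp8 and Snhg3 differed mainly at 24 h.

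The pathway list with the lowest median was that of late red cell clearance, which holds autophagy, ubiquitin and cell cycle exit genes of maturing red cells. This list was chosen with earlier results of these data known, so its counts are a description. Of its 20 tested members, 5 fell (0.341% of all genes tested did) and 0 rose (0.417%) in the mean of both times. All 20 differences were negative, against 4710 of all 10554 genes tested. The same shares over all genes stand beside the members of the lists below that passed in that mean. The list median was -0.49 on the log2 scale, beside 0.04 over all autosomal genes tested. It was -0.56 at 24 h and -0.49 at 48 h, and -0.49 against the Y-matched arrays. In 15 of the 20 genes the DKO array lay below every Rb1KO array at both times, against 9.85% of all genes tested. The lower erythroid marker sum of the DKO array at 48 h, and its place inside the Rb1KO range at 24 h, stand beside this result, and their part in it was not tested. With only the 8 arrays of the groups compared none of the 5 passed (adjusted p = 0.149 to 0.219), and with Y-linked signal as a covariate Tcp11l2 alone did (the others at 0.0727 to 0.136).

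Tcp11l2 had the largest fall after Rbl1 among the genes that met every condition for naming. Its signal was 2203 on the DKO array and 6579, 4388, 5494 and 6592 on the Rb1KO arrays at 24 h, and 7246 on the DKO array and 15481 and 12701 on the Rb1KO arrays at 48 h. On both knockouts the signal was higher at 48 h than at 24 h, and at each time the DKO array lay below all Rb1KO arrays (difference -1.15 ± 0.16 (SE), limma adjusted p = 0.00125). Gabarapl2, an ATG8-family protein of autophagosome membranes, gave 2961 on the DKO array and 9394, 6805, 5759.9 and 7831 on the Rb1KO arrays at 24 h, and 5684 on the DKO array and 10410.2 and 8252 on the Rb1KO arrays at 48 h, and fell by 1.00 ± 0.22 (SE) on the log2 scale (adjusted p = 0.0314). For Ube2o, the ubiquitin enzyme that clears proteins from reticulocytes, the signals were 1753 on the DKO array and 3721, 3482, 4425 and 3506 on the Rb1KO arrays at 24 h, and 4389 on the DKO array and 7096 and 8118 on the Rb1KO arrays at 48 h (-0.94 ± 0.22 (SE), limma adjusted p = 0.0429). Sqstm1 encodes p62, the receptor that hands ubiquitin-tagged cargo to autophagosomes. It gave 2723 on the DKO array and 6303, 6501, 5254 and 5524 on the Rb1KO arrays at 24 h, and 8194 on the DKO array and 14009.6 and 10832 on the Rb1KO arrays at 48 h (-0.84 ± 0.16 (SE), limma adjusted p = 0.0228). Mxi1, a MAX partner that opposes MYC, gave 5309 on the DKO array and 10384, 7673, 8678 and 8877 on the Rb1KO arrays at 24 h, and 6308 on the DKO array and 11279 and 11174 on the Rb1KO arrays at 48 h (-0.78 ± 0.15 (SE), limma adjusted p = 0.0228). For none of these 5 genes did the groups overlap at either time. The DKO array lay below in this way in 9.85% of all genes tested. Mxi1 is named as a list member, and the rule that named the others asked for such a gap. Against the Y-matched arrays alone the difference was -0.98 at 24 h and -0.81 at 48 h for Tcp11l2, and -1.25 at 24 h and -0.40 at 48 h for Sqstm1. The probe sets of a gene did not all give the same size. By the mean over probe sets Gabarapl2 differed by -0.31 (adjusted p = 0.626) and Sqstm1 by -0.28 (adjusted p = 0.624), and neither passed by limma. Tcp11l2 and Ube2o have 1 probe set each, though in that setting the limma adjusted p of Ube2o was 0.0511.

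**Figure D3:**
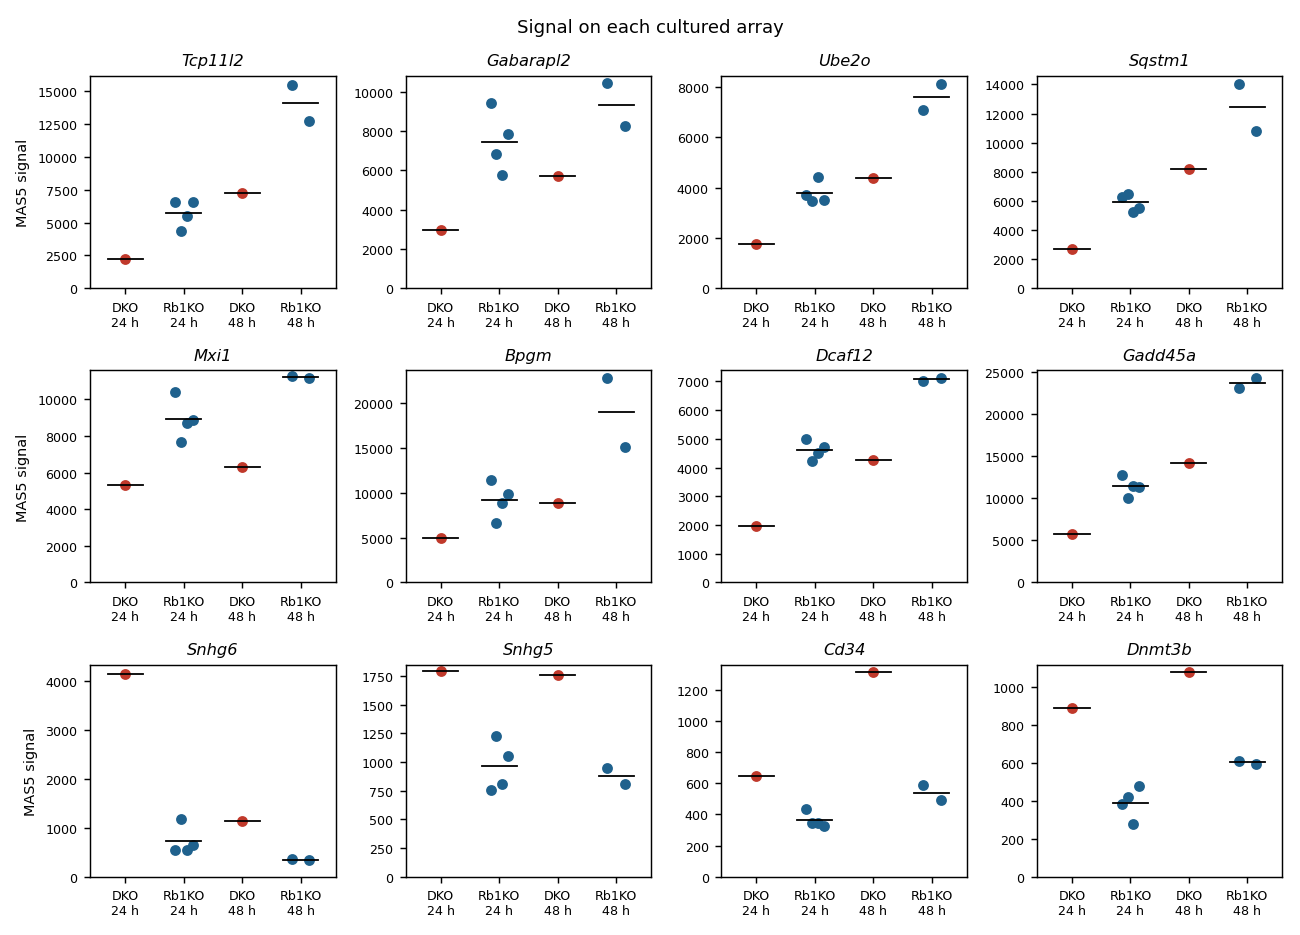
MAS5 signal on each cultured DKO and Rb1KO array at 24 h and 48 h for 12 genes; points are arrays and lines are group means, and each y axis starts at 0. The genes were chosen with the DKO array outside the Rb1KO range at both times. It lies below that range in the 8 genes of the upper rows and above it in Snhg6, Snhg5, Cd34 and Dnmt3b.

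Bpgm, which makes the 2,3-bisphosphoglycerate that tunes oxygen release from haemoglobin, was the only member to fall of the 22 tested genes of erythroid transcription factors and signalling. It gave 5006 on the DKO array and 11454, 6679, 8824 and 9926 on the Rb1KO arrays at 24 h, and 8839 on the DKO array and 22785 and 15162 on the Rb1KO arrays at 48 h (-0.96 ± 0.21 (SE), limma adjusted p = 0.0314). Dcaf12, a substrate receptor of the CUL4 ubiquitin ligase, gave 1965 on the DKO array and 4997, 4235, 4511 and 4700.3 on the Rb1KO arrays at 24 h, and 4253 on the DKO array and 7017 and 7121 on the Rb1KO arrays at 48 h (-0.97 ± 0.18 (SE), limma adjusted p = 0.0196). In both genes the DKO array was the lowest at each time, which was a condition for naming them. Against the Y-matched arrays Bpgm differed by -0.60 and Dcaf12 by -0.92. The Bpgm value was the smallest in size among the 34 named genes that passed besides Rbl1. By the mean over its probe sets Dcaf12 differed by -0.56 (adjusted p = 0.085), which did not pass in limma. Of the 19 tested genes of the red cell membrane 0 passed, with a median of -0.25 and 16 differences negative (4710 of all 10554 genes tested). At 48 h all 19 were negative, with a median of -0.39. In 7 of the 19 the DKO array lay below all Rb1KO arrays at both times, against 9.85% of all genes tested. Of the 14 genes of haem synthesis and breakdown 0 passed, with a median of -0.17 and 10 differences negative. The 3 tested globin genes had a median of 0.16 and none passed. Klf1, a master regulator of red cell genes, gave 27786 on the DKO array and 38330.1, 24530.3, 34068 and 25191 on the Rb1KO arrays at 24 h, and 12967 on the DKO array and 14155 and 19318 on the Rb1KO arrays at 48 h, a difference of -0.23 ± 0.20 (SE), limma adjusted p = 0.627, with overlapping groups at 24 h.

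Further genes that fell were spread over metabolism, growth arrest and chromatin. Gadd45a, a growth arrest gene induced by DNA damage, gave 5777 on the DKO array and 12797, 10044, 11475 and 11335 on the Rb1KO arrays at 24 h, and 14144 on the DKO array and 23085 and 24234 on the Rb1KO arrays at 48 h (-0.86 ± 0.17 (SE), limma adjusted p = 0.0228). H1f2, a linker histone, gave 6838 on the DKO array and 13991, 11590, 11596 and 13988 on the Rb1KO arrays at 24 h, and 12217 on the DKO array and 22049 and 19288 on the Rb1KO arrays at 48 h (-0.82 ± 0.16 (SE), limma adjusted p = 0.0228), and by the mean over probe sets -0.55 (adjusted p = 0.191). Glul, which makes glutamine, differed by -0.87 ± 0.15 (SE), limma adjusted p = 0.0138. Lpin2, a phosphatidate phosphatase of lipid synthesis, differed by -0.86 ± 0.15 (SE), limma adjusted p = 0.0156, and Ccndbp1, a partner of D-type cyclins, by -0.89 ± 0.20 (SE), limma adjusted p = 0.0378. Fam220a fell by 1.11 ± 0.20 (SE) on the log2 scale (adjusted p = 0.0156). By the mean over probe sets Glul and Fam220a differed by -0.59 and -0.90 and did not pass (limma adjusted p = 0.0539 and 0.0744). Col5a1, a chain of fibrillar collagen, gave 430 on the DKO array and 1158, 616, 602 and 518 on the Rb1KO arrays at 24 h, and 397 on the DKO array and 958 and 1042 on the Rb1KO arrays at 48 h (-0.95 ± 0.21 (SE), limma adjusted p = 0.037). By the mean over probe sets Col5a1 differed by -0.81 and did not pass (limma adjusted p = 0.0521). In the main fit it was the only 1 of 14 tested stromal markers to pass. The stromal list had a median of -0.04 at 24 h and -0.56 at 48 h, and its summed signal was 1798 on the DKO array against 2775 to 3296 on Rb1KO arrays at 48 h. The part of stromal cells in the Col5a1 value was not tested.

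Among the higher genes Snhg6, a noncoding host of small nucleolar RNAs, had the largest rise of those that met every condition. Its signal was 4151 on the DKO array and 551, 1179, 551 and 649 on the Rb1KO arrays at 24 h, and 1144 on the DKO array and 369 and 336 on the Rb1KO arrays at 48 h (2.07 ± 0.32 (SE), limma adjusted p = 0.00304). It was higher in DKO at both times, and more so at 24 h, but the change of the difference between the times did not pass (adjusted p = 0.899). Snhg5 gave 1798 on the DKO array and 756, 1232, 812 and 1057 on the Rb1KO arrays at 24 h, and 1761 on the DKO array and 952 and 811 on the Rb1KO arrays at 48 h (0.94 ± 0.19 (SE), limma adjusted p = 0.0279). By the mean over its probe sets Snhg5 differed by 0.25 (adjusted p = 0.606), which did not pass in limma. Snhg3, chosen after its values were seen, gave 3112 on the DKO array and 512, 713, 779 and 772 on the Rb1KO arrays at 24 h, and 654 on the DKO array and 394 and 436 on the Rb1KO arrays at 48 h. It passed in the mean (1.38 ± 0.27 (SE), limma adjusted p = 0.0228) but was not repeated by the size limits, since its difference was 2.13 at 24 h and 0.62 at 48 h. A list of the 12 tested host genes (Gas5 and all genes named Snhg), made after these values were seen, held these 3 genes that rose and 0 that fell. Its median was 0.49 in culture, and its choice rests on the same values. In DKO against Rb1KO cells at 0 h the list median was -0.13, with 5 of the 12 positive. In cultured p107KO against WT cells it was 0.52, with 10 of the 12 positive. Over all genes tested these 2 medians were 0.03 and 0.06.

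Cd34, a surface sialomucin of stem and progenitor cells, gave 648 on the DKO array and 435, 344, 345 and 326 on the Rb1KO arrays at 24 h, and 1312 on the DKO array and 589 and 491 on the Rb1KO arrays at 48 h (1.02 ± 0.20 (SE), limma adjusted p = 0.0228). Of 15 tested stem and progenitor markers it was the only 1 to pass in the mean of both times. The list had a median of 0.37, and Flt3 (1.15 ± 0.30 (SE)) and Sox4 (0.82 ± 0.20 (SE)) were repeated but did not pass (adjusted p = 0.068 and 0.0567). By the mean over probe sets Sox4 differed by 0.25. The summed signal of the list was 9875 on the DKO array against 7828 to 9519 on Rb1KO arrays at 24 h, and 16245 against 13160 to 14804 at 48 h. By the mean of log2 values the DKO array lay at 8.10 inside the Rb1KO range at 24 h, where the marker Procr passed lower, and at 8.86 above both Rb1KO arrays at 48 h. The part of cell numbers in these values was not tested. Dnmt3b, a de novo DNA methyltransferase, gave 891 on the DKO array and 382, 418, 277 and 480.4 on the Rb1KO arrays at 24 h, and 1079 on the DKO array and 609 and 596 on the Rb1KO arrays at 48 h (0.98 ± 0.21 (SE), limma adjusted p = 0.0314). Irf8, a transcription factor of the monocyte and dendritic cell lineages, gave 625.1 on the DKO array and 438, 435, 395 and 358 on the Rb1KO arrays at 24 h, and 1628 on the DKO array and 854 and 783 on the Rb1KO arrays at 48 h (0.78 ± 0.18 (SE), limma adjusted p = 0.0425). By the mean over probe sets Irf8 differed by 0.68 (adjusted p = 0.125), which did not pass in limma.

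The other genes named among the higher ones were Ms4a4c (1.14 ± 0.27 (SE)), Lztr1, an adaptor of a ubiquitin ligase for RAS proteins (1.05 ± 0.25 (SE)), the noncoding gene 1110038B12Rik (0.97 ± 0.21 (SE)), and Hmgn1, a nucleosome-binding protein (0.96 ± 0.21 (SE)). Qrsl1, of mitochondrial glutaminyl-tRNA synthesis (0.94 ± 0.22 (SE)), Wdr75, of ribosomal RNA processing (0.82 ± 0.19 (SE)), the phospholipid flippase gene Atp8b4 (0.81 ± 0.17 (SE)) and the RNA-binding protein gene Hnrnpa0 (0.67 ± 0.14 (SE)) completed the 13 that met every condition. Their limma adjusted p-values lay between 0.0279 and 0.0473. By the mean over probe sets Lztr1, Qrsl1, Wdr75 and Atp8b4 differed by 0.44, 0.51, 0.58 and 0.14 and did not pass. Cip2a, an inhibitor of the phosphatase PP2A, was next by size. It gave 3614 on the DKO array and 492, 1522, 2174 and 2229 on the Rb1KO arrays at 24 h, and 2334 on the DKO array and 639 and 1115 on the Rb1KO arrays at 48 h and did not pass (1.396 ± 0.43 (SE), limma adjusted p = 0.114).

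Promoter windows were searched on both strands for words bound by E2F factors (TTTCCCGC, TTTGGCGC, TTTCGCGC, TTTGCCGC), by GATA factors (AGATAA) and by NF-Y (CCAAT), and for the cell cycle element CHR (TTTGAA). The windows span 300 bases, 250 before and 50 after the start. RefSeq promoters were found for 8609 of the tested genes, for 37 of those that rose and 31 of those that fell. The E2F words were in 4.46% of all windows, in 0 of the 37 and in 9.68% of the 31, Rbl1 among these. CCAAT was in 38.5% of all windows, in 64.9% of the 37 and 48.4% of the 31. The GATA word was in 6.19% of all windows, 2.7% of the 37 and 0 of the 31, and CHR in 11.6%, 18.9% and 0. In the larger repeated set the CCAAT shares were 41.7% of 175 higher and 41.0% of 105 lower genes, close to the share of all windows. The GATA shares there were 5.14% and 9.52%, and the CHR shares 15.4% and 12.4%. A match is a description of letters, not a site in use. Of genes that moved together, the windows before Bpgm and Dcaf12, which fell, and Snhg5 and Snhg3, which rose, were chosen for their matches and are shown with CCAAT or its reverse complement ATTGG in capitals (in Snhg3 also the reverse complement of CHR), 250 bases each from GRCm38.p6, 5' to 3' on the gene's strand. The windows before Tcp11l2, Gabarapl2, Sqstm1, Cd34 and Dnmt3b had no CCAAT match in these 250 bases and are not shown.
Bpgm (chr6:34476106-34476355, plus strand): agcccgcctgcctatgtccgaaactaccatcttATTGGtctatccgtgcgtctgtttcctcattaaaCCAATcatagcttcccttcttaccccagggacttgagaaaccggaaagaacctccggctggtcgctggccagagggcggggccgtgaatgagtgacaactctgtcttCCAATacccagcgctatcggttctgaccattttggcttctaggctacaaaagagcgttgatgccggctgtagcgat
Dcaf12 (chr4:41314902-41315151, minus strand): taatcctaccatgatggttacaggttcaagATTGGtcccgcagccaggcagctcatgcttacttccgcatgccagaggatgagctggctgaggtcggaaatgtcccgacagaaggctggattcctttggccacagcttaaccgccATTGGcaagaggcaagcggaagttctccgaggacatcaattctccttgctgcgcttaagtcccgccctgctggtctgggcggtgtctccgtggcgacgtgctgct
Snhg5 (chr9:88522898-88523147, minus strand): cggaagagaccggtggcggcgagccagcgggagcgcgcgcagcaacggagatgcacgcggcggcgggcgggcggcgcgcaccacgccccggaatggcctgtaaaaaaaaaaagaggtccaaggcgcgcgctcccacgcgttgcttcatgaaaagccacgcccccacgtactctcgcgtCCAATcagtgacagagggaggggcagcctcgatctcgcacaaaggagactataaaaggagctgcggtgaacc
Snhg3 (chr4:132353687-132353936, minus strand): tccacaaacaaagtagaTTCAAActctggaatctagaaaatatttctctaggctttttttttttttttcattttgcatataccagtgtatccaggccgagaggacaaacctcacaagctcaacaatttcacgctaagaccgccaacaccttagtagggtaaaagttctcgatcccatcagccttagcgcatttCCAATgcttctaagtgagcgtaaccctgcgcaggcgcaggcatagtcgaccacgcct

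Cell cycle genes are the known domain of the pocket proteins. Of 39 tested genes of DNA replication 0 passed, 27 differences were positive, and the median was 0.10. Of 42 genes of mitosis 0 passed and 38 were positive, with a median of 0.09 at 24 h and 0.38 at 48 h. For the 20 tested genes of homologous recombination repair 0 passed and 18 were positive, with a median of 0.27. In 9, 10 and 7 genes of these 3 lists the DKO array lay above all Rb1KO arrays at both times, against 13.3% of all genes tested. Of all 10554 genes tested, 5844 differences were positive. The 10 tested E2F and DP genes had a median of -0.17 and 0 passed. Dtymk, the thymidylate kinase of nucleotide synthesis, was the 1 of 10 tested genes of its list to rise (0.80 ± 0.15 (SE), limma adjusted p = 0.0228), with 9502 on the DKO array and 4057, 4244, 3733 and 4676 on the Rb1KO arrays at 24 h, and 4713 on the DKO array and 3122 and 3958 on the Rb1KO arrays at 48 h. By the mean over probe sets Dtymk differed by 0.43 (adjusted p = 0.0696), which did not pass in limma. Hspe1, the mitochondrial chaperonin partner, was the 1 of 13 tested heat shock genes to rise (0.72 ± 0.17 (SE), limma adjusted p = 0.0465). By the mean over probe sets Hspe1 differed by 0.66 (adjusted p = 0.085), which did not pass in limma.

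Among stress pathways, the p53 targets had the lowest median. Of 19 tested p53 targets, Gadd45a fell and 0 rose, with a list median of -0.37. The repeated and lower genes were Bbc3, the BH3-only killer PUMA (-0.76 ± 0.24 (SE)), Ccng1 (-0.64 ± 0.20 (SE)), the death receptor gene Fas (-0.88 ± 0.41 (SE)), Sesn2 (-0.87 ± 0.48 (SE)) and Gadd45a. The first 4 had adjusted p-values of 0.117 to 0.391 and did not pass. In 9 of the 19 the DKO array lay below all Rb1KO arrays at both times, against 9.85% of all genes tested. At 24 h Mdm2, the ubiquitin ligase that targets p53, passed lower as well (-1.35 ± 0.30 (SE), adjusted p = 0.0187, limma). The 25 tested genes of the integrated stress and unfolded protein responses had a median of -0.29, and 0 passed. Immediate early genes had a median of -0.39 at 24 h and -0.12 at 48 h, and of 15 tested 0 passed in the mean of both times and 1, Klf6, passed lower at 24 h. In the remaining pathway lists (G1/S cyclins and kinases, CDK inhibitors, the BCL2 family, antioxidant genes, iron handling, glycolysis, the respiratory chain, ribosomal proteins, cholesterol synthesis, chemokines and cytokines, imprinted growth genes) 0 genes passed in the mean of both times, and the list medians lay between -0.21 and 0.31. At 24 h alone the respiratory chain genes Ndufb3 and Cox5a, the ribosomal protein gene Rps18 and the survival gene Bcl2 (1.75 ± 0.37 (SE), adjusted p = 0.015) passed higher in limma. The iron transporter gene Slc11a2 and the cytokine gene Csf1 passed lower at that time. Ribosomal protein genes had a median of 0.47 at 24 h and -0.14 at 48 h. In the lists of hepatocyte, macrophage, neutrophil, megakaryocyte, mast cell, endothelial, lymphoid and general erythroid markers 0 genes passed in the mean of both times, with medians between -0.18 and 0.21, and the megakaryocyte marker Fli1 passed higher at 24 h. These genes that passed at 24 h alone were chosen after their values were seen. At 48 h, however, the median was -0.67 for hepatocyte markers, with 17 of 22 differences negative (4731 of all 10554 genes tested). For macrophage markers it was -0.38, with 16 of 17 negative, and for general erythroid markers -0.33, with 6 of 6 negative. By the mean of log2 values the hepatocyte list lay at 6.65 on the DKO array, and at 7.91 and 6.64 on Rb1KO replicates 1 and 2. For the macrophage list these values were 9.30, 10.32 and 9.27. Against the Y-matched arrays, in the mean of both times, the hepatocyte and macrophage medians were 0.23 and -0.01. The part of these cell types in the other values at 48 h was not tested.

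Interferon-stimulated genes leaned the other way. Of 25 tested, 24 had a positive difference (5844 of all 10554 genes tested), with a median of 0.51, and 1 rose. This was Iigp1, an immunity-related GTPase, which gave 428 on the DKO array and 124, 247, 120.3 and 207 on the Rb1KO arrays at 24 h, and 729 on the DKO array and 176 and 409 on the Rb1KO arrays at 48 h (1.27 ± 0.28 (SE), limma adjusted p = 0.0358). By the mean over probe sets Iigp1 differed by 1.25 and did not pass (limma adjusted p = 0.0511). In all, 7 members were repeated and higher, namely Iigp1, Bst2, Gbp2, Gbp3, Mx1, Mx2 and Oas2 (1.97% of all genes tested were). Mx2, an antiviral dynamin-like GTPase, gave 317 on the DKO array and 24.8, 213, 148 and 57.6 on the Rb1KO arrays at 24 h, and 1084 on the DKO array and 163 and 1214 on the Rb1KO arrays at 48 h and did not pass (1.34 ± 0.62 (SE), limma adjusted p = 0.295). Against the Y-matched arrays the list median was 0.20, less than the value over all Rb1KO arrays, and the differences of Mx2 and Bst2 were 0.18 and 0.22 (limma adjusted p = 0.942 and 0.876). The part of sex in the list's values was not tested. In cells at 0 h, on other arrays but with a like imbalance of sex, the same list had a median of 0.45 in DKO against Rb1KO.

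**Figure D4:**
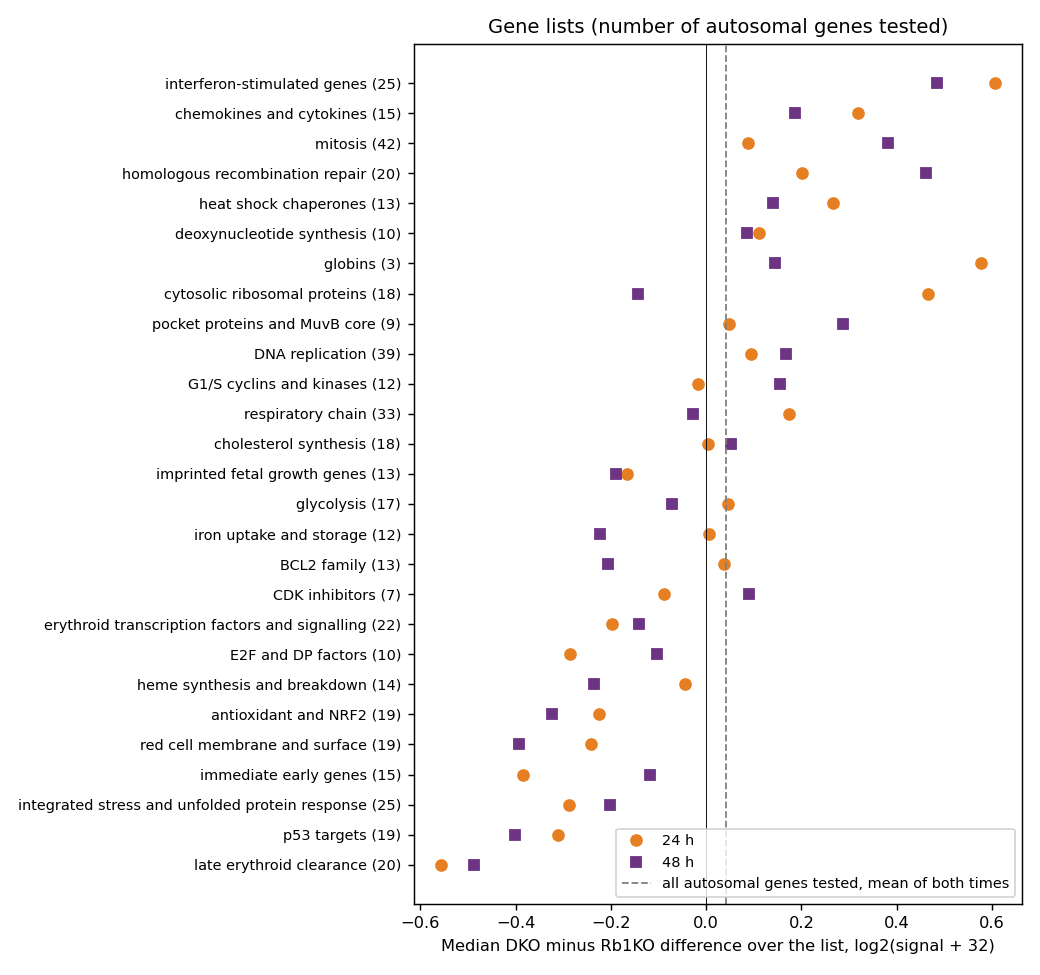
Median difference between DKO and Rb1KO over each pathway list, in log2(signal + 32), at 24 h (circles) and 48 h (squares), with the number of autosomal genes tested in parentheses; cell type marker lists and the host gene list are not drawn, and the dashed line is the median of all autosomal genes tested, in the mean of both times. Of the lists plotted, late erythroid clearance is lowest at both times (-0.56 and -0.49), and interferon-stimulated genes are highest (0.61 and 0.48).

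Some genes had a larger difference at 24 h than at 48 h. The 3 named here were chosen after their values were seen, and no gene passed the test of the change. Dusp8, a phosphatase of MAP kinases, gave 129.5 on the DKO array and 1236, 1071, 1502 and 1344 on the Rb1KO arrays at 24 h, and 1340.2 on the DKO array and 1799 and 1323 on the Rb1KO arrays at 48 h. Its difference was -3.02 ± 0.39 (SE), limma adjusted p = 0.000488 at 24 h and -0.20 ± 0.43 (SE) at 48 h (adjusted p of the change 0.35). In the mean of both times it was -1.61, and by the mean over probe sets -1.02 (adjusted p = 0.0361). Tex264, a receptor for autophagy of the endoplasmic reticulum, differed by -2.29 ± 0.34 (SE) at 24 h and -0.40 ± 0.38 (SE) at 48 h. Mndal, an interferon-inducible nuclear protein gene, differed by 2.10 ± 0.29 (SE) at 24 h and 0.90 ± 0.32 (SE) at 48 h. The limma adjusted p-values at 24 h were 0.00209 for Tex264 and 0.00104 for Mndal. All 3 rest on 1 DKO array, 1 of the 3 that stood apart by correlation and brightest signal.

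The same genes were read on arrays that share none with the cultured comparison. Y-linked signal was present on both DKO arrays at 0 h and on 1 of the 5 Rb1KO arrays, so sex was unbalanced there as well. In cells at 0 h, DKO (2 arrays) against Rb1KO (5 arrays), 136 of the 208 repeated higher genes were positive (65.4%), against 55.3% of all genes tested, and 91 of the 131 repeated lower genes were negative (69.5%), against 44.7%. Only Rbl1 passed there (0.00948%), with 383 genes at an unadjusted p under 0.05 (3.63%). In cultured cells with Rb1 intact, p107KO (3 arrays) against WT (4 arrays), 179 of the 208 were positive (86.1%), against 59.1% of all genes, and 89 of the 131 were negative (67.9%), against 40.9%. Rbl1 is one of the 131. There 2 genes passed (0.019%), Rbl1 and Zbtb32, a zinc finger repressor gene (-2.28 ± 0.36 (SE)), with 841 at an unadjusted p under 0.05 (7.97%), and 26 passed without p107KO 24 h replicate 2 or without WT 48 h replicate 1. The median difference of the late red cell list was -0.14 at 0 h and -0.31 in p107KO against WT cultures. Of the 13 named lower genes besides Rbl1, 12 were negative in each of these 2 comparisons. Of the 14 named higher genes (Cip2a among them), 11 were positive at 0 h and 14 in p107KO against WT. By DKO 0 h replicate 2 alone 8 of the 14 were positive (57.1%, against 53.6% of all genes), and 9 of the 13 were negative. By that array 63.5% of the 208 were positive and 58.0% of the 131 negative, against 53.6% and 46.4% of all genes. By replicate 1 the shares were 64.4% and 70.2%, against 56.5% and 43.5%. Tcp11l2 differed by -0.75 ± 0.16 (SE) at 0 h and by -0.38 ± 0.15 (SE) in p107KO against WT, with adjusted p-values of 0.376 and 0.487. The difference of the differences, DKO against Rb1KO minus p107KO against WT, passed for 0 genes, with 594 at an unadjusted p under 0.05 (5.63%). These shares count genes of the same arrays, which are not independent, and p107KO 24 h replicate 1 alone of these 7 cultured arrays had Y-linked signal. Taken by that array alone the shares were 68.3% and 51.9%, against 52.7% and 47.3% of all genes tested, and the median of the 131 was -0.06. By the other p107KO array at 24 h the shares were 79.3% and 65.6%, against 57.5% and 42.5%. By the p107KO array at 48 h they were 81.2% and 75.6%, against 57.6% and 42.4%.

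**Figure D5:**
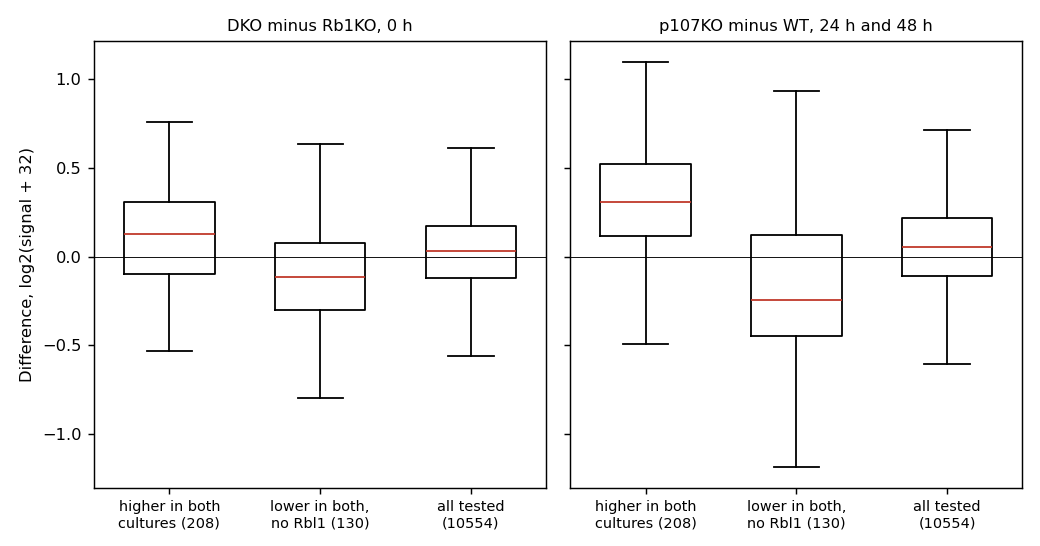
Differences in log2(signal + 32) of the 208 repeated higher genes, the 130 repeated lower genes without Rbl1 and all 10554 genes tested, in uncultured DKO against Rb1KO cells (left) and cultured p107KO against WT cells (right); boxes are quartiles with the median as a line, and whiskers reach the farthest gene within 1.5 times the box height. Higher genes had medians of 0.12 and 0.31, above those of all genes (0.03 and 0.06).

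Genes near Rbl1 on its chromosome were examined apart. Of the 200 tested genes nearest to Rbl1 on chromosome 2 (100 on each side), 5 were repeated (2.5%), against 3.21% of all, and on the whole chromosome without Rbl1 21 of 873 (2.41%). Of the 5, Dnmt3b alone passed, with 50 tested genes between it and Rbl1. Serinc3, a membrane protein of the serine incorporator family, chosen after its values were seen, lies with 32 tested genes between it and Rbl1. It gave 5079 on the DKO array and 68343, 20323, 27920.1 and 6854 on the Rb1KO arrays at 24 h, and 5699 on the DKO array and 23178 and 22302 on the Rb1KO arrays at 48 h. Both DKO arrays and Rb1KO 24 h replicate 4 were low, and the other 5 Rb1KO arrays were high. Over all 27 arrays its signal was 4927 to 7434 on the 9 DKO and p107KO arrays, 5946 on Rb1KO 0 h replicate 5 and 6854 on Rb1KO 24 h replicate 4, and 16254 to 68343 on the other 16 arrays. The difference in culture was -2.07 ± 0.53 (SE), limma adjusted p = 0.0617, so Serinc3 did not pass. A further Serinc3 probe set gave 68.4 and 103 on the DKO arrays and 116 on Rb1KO 24 h replicate 4, against 1818 to 4982 on the other cultured Rb1KO arrays. Rbl1 itself was not low on either of those Rb1KO arrays (2174 at 0 h and 2192 at 24 h). The labels do not set these 2 Rb1KO arrays apart, and the cause of the low Serinc3 signal was not tested. Without Rb1KO 24 h replicate 4, 29 of the 34 genes named here that passed besides Rbl1 still passed.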

How the data were processed

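The deposited table holds linear signal intensity per probe set, which the authors computed by MAS5 in GCOS 1.4 (per the submitters' processing notes). In the table the authors deposited, the mean intensity of each array without its extremes was already near equal. Array data have no read depth, so the number of arrays limits the precision. The platform annotation gave 1 symbol to 34945 of 45037 probe sets, several to 932 and none to 9160. Symbols were updated through the gene table of GRCm38.p6 (34736 matched). The brightest probe set stood for each of 18193 genes. The 40% with the lowest mean were left out, which kept 10916 genes, 10554 of them autosomal.

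Values were analysed as log2(signal + 32), which pulls differences of dim genes toward 0. The test was limma (3.58.1, in R 4.3.3) on a mean for each genotype and time, over all 27 arrays, with a variance prior that follows brightness (15 residual and 7.14 prior degrees of freedom). P-values are two-sided and adjusted over the 10916 genes by Benjamini-Hochberg, and errors are standard errors. The mean of 24 h and 48 h gives both times equal weight. Named genes are Rb1, Rbl1 and Rbl2, up to 14 genes in each direction with the largest repeated difference that passed, that lay outside the Rb1KO range at both times and were brighter than the median gene (filled from genes that did not pass), list members with the smallest adjusted p, and neighbours of Rbl1 that passed. The members, the lists and this rule were chosen with earlier results of these data known.

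The test was run on simulated data in which known genes of 10916 changed. For the mean of both times 61% of 2-fold and 96% of 4-fold changes were recovered, at 24 h 29% and 86%, and at 48 h 35% and 84%. Of the calls, 3.68% were false in the mean, 3.36% at 24 h and 9.85% at 48 h. The simulated noise was normal and independent between arrays, without an array that stood apart, so real arrays may do worse. DKO and Rb1KO shared only replicate number 1 within each culture time, too few to check whether the numbers pair the samples. Alternatives were pseudocounts of 1 and 100, other filters, quantile normalization, the mean over probe sets, array weights, fewer arrays, the replicate number as a block, Y-linked signal (Eif2s3y above 300) as a covariate, 2-fold in place of 1.5-fold, and leaving out each array. Fits to the Y-matched Rb1KO arrays were added after seeing the data. Python 3.11.15 and matplotlib 3.10.9 drew the figures.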

Additional observations from a re-analysis of the deposited data

How the results depend on the processing

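The count of 80 genes in the mean of 24 h and 48 h became 132 with a pseudocount of 1, 38 with no filter on dim genes, 51 with the mean over probe sets and 404 with array weights. It became 6 with only the groups compared, 6 with Y-linked signal as a covariate, 2 with genotype and time as additive terms over 8 arrays, and 1 with only the Y-matched Rb1KO arrays. Leaving out 1 array gave 1 to 242 genes. With the replicate block it became 165, though the labels do not say what the number marks, and the count at 0 h became 2 in place of 1. The block did not move the other counts by more than 1.5 times. At 24 h the count of 241 became 125 with the mean over probe sets, 744 with array weights, 11 with only the groups compared and 76 with the Y covariate, and 170 to 355 without 1 array. At 48 h the count of 1 became 4 with a pseudocount of 1 and 0 with the mean over probe sets. The count for the change of the difference became 2 with array weights. The 339 repeated genes became 178 with a pseudocount of 100, 749 with no filter, 152 with the filter at 60% and 31 at 2-fold, and lay between 303 and 411 without 1 array. At 0 h leaving out 1 array gave 1 to 2 genes, and for p107KO against WT 1 to 26. The difference of differences gave 1 gene with only the groups compared. The Rb1 difference turned to -0.12 (limma adjusted p = 0.863) with the mean over probe sets. Rbl1 passed under each alternative. Of the 34 other named genes that passed, none changed sign under any alternative. However, 3 still passed with only the groups compared, 4 with the Y covariate and 1 in the additive fit. At 48 h alone none of them passed. The Y-matched fit keeps 1 Rb1KO array per time, and its smallest size among the 34 was 0.595. With the mean over probe sets 17 of the 34 passed and 10 moved by more than 1.5 times, among them Gabarapl2, Sqstm1, Snhg5 and Atp8b4, with the smallest size at 0.14. The causes of these changes were not tested, except that fits with fewer arrays have fewer degrees of freedom by construction.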
